A study of Mus musculus with 10 samples.

Results

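Oct4/GFP mouse embryonic fibroblasts (MEF) were compared with the fully reprogrammed induced pluripotent stem (iPS) cell lines made from such fibroblasts, over 8 of the 10 RNA-sequencing libraries of the study. The MEF were sequenced at passages 2 and 4 and grown in DMEM with 10% fetal calf serum. The iPS cells were 1 'control' line and 2 'rNetrin-1-derived' clones (clone 1 and clone 2), each sequenced at passages 5 and 25 and grown in KSR medium with LIF. Every line came from a cross of mf1 and 129 mice, and the iPS lines carry retroviruses for Oct4, Sox2, Klf4 and c-Myc. The rNetrin-1-derived clones were obtained with recombinant Netrin-1, a secreted laminin-related guidance protein, present during reprogramming. The 2 libraries left aside were partially reprogrammed (pre-iPS) cells, which served only the estimate of the spread. Each iPS line was 1 clone taken at 2 passages, so the 6 iPS libraries represent 3 lines, and no label says that the 2 MEF libraries came from separate embryos. The fit gave each of the 5 lines (MEF, pre-iPS and the iPS lines) its own mean. All p-values therefore rest on the spread between the 2 libraries of a line, which may be partly technical. Differences between iPS lines do not enter that spread, so the p-values do not cover variation between clones. The culture medium differed with the cell type, so medium and cell identity cannot be told apart. Any part played by feeder cells, on which such lines are often grown, was not tested.

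Fibroblasts are the mesenchymal cells that build connective tissue. They secrete collagens and other matrix proteins, pull on that matrix through integrins and contractile actin fibres, and keep the positional Hox code of the body region they come from. Pluripotent stem cells grow as tight epithelial colonies, divide with very short gap phases, and depend on a network of transcription factors around Oct4 (*Pou5f1*) and *Nanog*. Reprogramming runs through a mesenchymal-to-epithelial transition, and the retroviral factors are then normally silenced while the endogenous network takes over.

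The deposited values were library-size-adjusted read counts for 18901 genes, and the reads behind them were 47356484 and 52946856 in the MEF libraries and between 38110410 and 46357031 in the iPS libraries. A gene was tested if its value reached 10 in at least 2 libraries (17075 genes), on the log2(value + 1) scale, which understates the change of genes with low values. "Higher" and "lower" below mean a limma Benjamini-Hochberg adjusted p under 0.05 and a difference of at least 1 on the log2 scale, always iPS minus MEF. By this rule 4547 genes (26.6%) were higher in iPS cells and 3690 (21.6%) were lower, 48.2% of the genes tested in all. The libraries of the 2 cell types did not overlap for 80.0% of the genes, and for 41.9% every iPS library lay above both MEF libraries. The median log2 difference over all genes was 0.087. These shares are the background for every list described here. In many lists some genes were under 10 in all MEF or all iPS libraries, and could hardly be called in more than 1 direction. Where MEF values amount to a few reads, the size of a log2 difference depends on the added 1. The 2 MEF libraries were much more alike than any 2 passages of another line, with 1.89% variation beyond counting error against 13.7 to 15.4%.

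The balance of gains and losses depended on scaling. *Gapdh* had a mean of 32791 in MEF and 64012 in iPS cells without being called (log2 difference 0.96), and *Actb*, *Hprt* and *Tbp* had log2 differences of -0.45, 0.74 and 0.30, none of them called. In housekeeping scaling, libraries were set to an equal median log2 level of these 4 housekeeping genes. By their levels, that median rested on *Gapdh* and *Hprt*, the genes with the larger rises, in nearly all of the MEF and iPS libraries. The median of all genes then moved to -0.75. Of the calls, 29.0% were higher in iPS cells against 55.2% here (2946 higher and 7206 lower). Lists whose median or balance of calls turned under another scaling are given with the new median or counts.

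The labels held against the markers of both cell types. All 13 fibroblast identity genes were lower in iPS cells, with a median log2 difference of -5.03, and the iPS libraries kept a median of 2.30 to 3.89% of the MEF level, from 0.120% for lumican (*Lum*) to 26.4% for *Twist2*. All 12 pluripotency identity genes were higher, with a median of 8.54, and the MEF libraries had 0.231 to 0.269% of the iPS level. *Pou5f1*, at 2.29%, had the highest residual level of these in MEF. Some of the 12, *Dppa3*, *Dppa4* and *Fgf4* among them, were under 10 in both MEF libraries and could hardly be called lower. The count of 12 is thus a description. Reads from the retroviral *Pou5f1* and *Sox2* could not be separated from endogenous ones. In bulk RNA, fewer cells of a type and less RNA per cell cannot be told apart.

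Lost genes had held more of the library than gained genes came to hold. The 3690 lower genes held 46.9 to 47.3% of the MEF reads and 10.8 to 12.6% of the iPS reads. The 4547 higher genes held 3.87 to 3.92% of the MEF reads and 18.2 to 20.1% of the iPS reads. Gains were more often large on the log scale. A log2 difference of at least 5 was reached by 792 higher genes and 281 lower ones, and at least 8 by 86 and 31. The 281 strongly lower genes held at most 12.3% of the MEF reads, with both libraries close, and 0.133 to 0.244% of the iPS reads. All 10 genes with the largest fall in mean value encode secreted matrix proteins: *Col1a1*, *Fn1*, *Col1a2*, *Col3a1*, *Thbs1*, *Sparc*, *Col5a2*, *Bgn*, *Fbln2* and *Col5a1*. The 10 largest rises were of mixed function. They were led by the chaperone *Hsp90ab1* (98316 to 237420 on average) and *Pou5f1*, followed by *Cmah*, a sialic acid hydroxylase whose mean went from 847 to 95628, and included *Hsp90aa1*, prothymosin alpha (*Ptma*), nucleophosmin (*Npm1*), the glucose transporter *Slc2a1* and *Myc*. Of the 10, *Hspa8* and *Pkm* remained below the log2 limit of 1.

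The fibrillar collagen program was lost as a block. Fibrillar collagens are the rope-like scaffold of connective tissue, and all 19 members of the list were lower, with a median log2 difference of -6.35. Their share of the library went from 6.83 to 7.11% in MEF to 0.0605 to 0.116% in iPS cells. *Col1a1*, the main chain of type I collagen (chromosome 11, 94936224 to 94953042, plus strand), had values of 1237800 and 1145600 in MEF and 5264 to 11894 (median 7477) in iPS cells (log2 difference -7.27 ± 0.19 SE, limma Benjamini-Hochberg adjusted p = 1.1e-08). Both MEF libraries were about equal and no iPS library came near them. The type XII collagen gene *Col12a1*, which decorates fibrils, had values of 206250 and 205110 in MEF and 396 to 1079 (median 437) in iPS cells, and its difference of -8.49 was the largest of the list. *Col3a1*, which forms thin reticular fibres, fell by 7.50.

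Most other matrix genes fell too. Of 32 matrix glycoproteins and elastic fibre genes, 30 were lower and none higher (median -4.28), and their library share went from 4.87 to 4.95% to 0.281 to 0.417%. Periostin (*Postn*), a matricellular protein of remodelling tissue, had values of 99822 and 101490 in MEF and 202 to 470 (median 306) in iPS cells (log2 difference -8.30 ± 0.28 SE, limma Benjamini-Hochberg adjusted p = 3.7e-08). Fibronectin (*Fn1*), the adhesive fibre that cells assemble outside the membrane, had a smaller log2 difference (1102300 and 1065300 in MEF and 62001 to 101760 (median 85361) in iPS cells, -3.76), and iPS cells still gave it 0.199% of the reads against 1.94% in MEF. Of 25 collagen processing and cross-linking enzymes, 21 were lower and none higher. The prolyl hydroxylase subunit *P4ha3* and the procollagen peptidase *Adamts2* had differences of -7.14 and -7.04, and the collagen chaperone *Serpinh1* had -3.57. The cross-linking enzyme lysyl oxidase (*Lox*) was lower too (-6.35), but its iPS values ran from 637 to 10189 and differed among lines.

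Basement membrane genes were split by chain. Basement membranes are the sheets on which epithelia rest, and 12 of the 23 genes were lower, 5 were higher and 6 were not called (median -1.56). *Lama2*, the laminin chain of muscle and mesenchyme, had values of 2367 and 2415 in MEF and 21.5 to 52.4 (median 26.5) in iPS cells (-6.33), and the collagen IV chains *Col4a5* and *Col4a1* had -4.12 and -2.85. The embryonic laminin chain *Lama1* went the other way, with values of 294 and 298 in MEF and 1298 to 9610 (median 2627) in iPS cells (log2 difference 3.42 ± 0.47 SE, limma Benjamini-Hochberg adjusted p = 0.00015). The epithelial laminin chain *Lamb3* was also higher, by 4.42. *Lamb3* was higher at passage 5 than at passage 25 in each of the 3 lines, with values of 306, 594 and 478 against 92.8, 112 and 153, a difference that was not tested. Among 21 matrix metalloproteinases and Timp inhibitors, 14 were lower and 4 higher. The collagenase *Mmp13* (-6.13), the gelatinase *Mmp2* (-3.90) and the matrix-bound inhibitor *Timp3* (-5.10) fell, while the membrane-anchored *Mmp25* and *Mmp24* rose by 4.35 and 3.29.

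**Figure D1:**
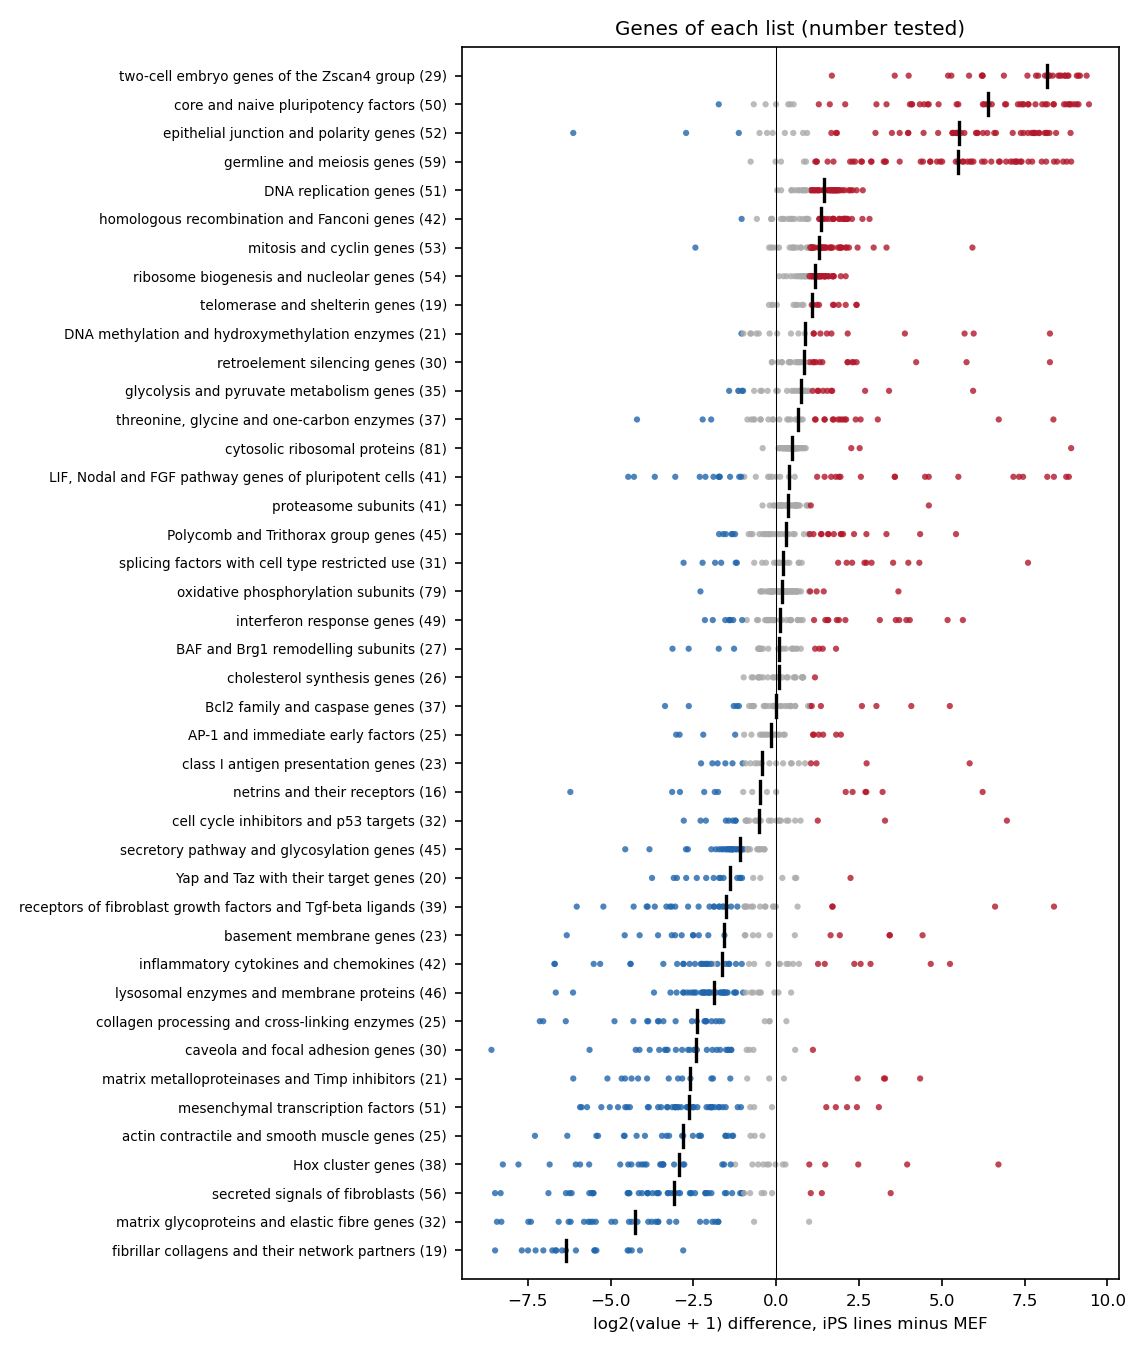
Log2 difference (iPS minus MEF) of every tested member of the program lists (all lists but the cell type and lineage markers), 1 row a list. Members called higher or lower are in colour, members not called in grey, and the list median is a bar. The fibrillar collagen list lies wholly to the left, the Zscan4 group, pluripotency and germline lists mostly to the right, and oxidative phosphorylation, cholesterol and proteasome lists around 0.

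The contractile and adhesive machinery fell with the matrix. Of 25 actin contractile and smooth muscle genes, 22 were lower, 3 were not called and none was higher (median -2.81), and the list's library share went from 1.68 to 1.70% to 0.347 to 0.458%. Smooth muscle actin (*Acta2*) had values of 142180 and 139450 in MEF and 838 to 4322 (median 1840) in iPS cells (log2 difference -6.31 ± 0.57 SE, limma Benjamini-Hochberg adjusted p = 9e-06), and the iPS values, although widely spread, stayed far under MEF. *Actg2*, *Myl9* and *Tagln*, an enteric actin, a myosin light chain and an actin cross-linker, fell, with differences of -7.29, -5.43 and -4.58. Of 30 caveola and focal adhesion genes, 25 were lower and 1 higher (median -2.43). The collagen-binding integrin *Itga11* had values of 11737 and 11365 in MEF and 22.4 to 32.8 (median 29.9) in iPS cells (log2 difference -8.60 ± 0.19 SE, limma Benjamini-Hochberg adjusted p = 6.3e-09). Caveolin 1 (*Cav1*), the coat protein of caveolae, and the focal adhesion protein zyxin (*Zyx*) had smaller differences of -3.53 and -2.66. The exception was *Parvb*, an integrin-linked kinase partner, at 1.11.

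Targets of the mechanosensitive coactivators Yap and Taz, which act through Tead factors at the DNA, fell in most cases. Of 20 genes of this pathway, 14 were lower, 1 was higher and 5 were not called (median -1.38). *Cyr61* and *Ctgf*, secreted proteins that are standard Yap readouts, had values of 29995 and 29611 in MEF and 2470 to 4162 (median 3769) in iPS cells and of 17103 and 17019 in MEF and 2552 to 5718 (median 3981) in iPS cells, with log2 differences of -3.09 and -2.11. Neither gene had an iPS library within the MEF range. The gene that rose was the DNA-binding partner *Tead4* (2.24), which is active in the early embryo. Promoter windows of 300 bases, 250 before the start and 50 after it (RefSeq, GRCm38.p6), were at hand for 14 of the 20 genes and 21 of the 25 contractile genes, and the remaining windows were not read. The Tead motif GGAATG, on either strand, was in 11 of the 14 windows and in 10 of the 21 (47.6%), against 12.6% of all 13305 windows read. A CArG box, the site of serum response factor, was in 4 of the 21 contractile windows against 1.35% of all. The 150 bases before the start of 1 gene of each list are shown with the motif in capitals, at chr3:145649986-145650135 (minus strand) for *Cyr61* and chr19:34255374-34255523 (minus strand) for *Acta2*. A match describes the letters only and does not show that a factor was bound.
Cyr61: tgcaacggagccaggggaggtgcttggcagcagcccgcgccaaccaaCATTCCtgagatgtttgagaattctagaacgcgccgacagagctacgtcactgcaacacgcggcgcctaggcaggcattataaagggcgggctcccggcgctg
Acta2: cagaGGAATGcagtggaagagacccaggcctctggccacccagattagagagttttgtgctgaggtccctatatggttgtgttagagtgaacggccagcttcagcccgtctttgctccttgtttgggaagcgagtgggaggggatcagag

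Mesenchymal transcription factors were nearly all reduced. Of 51, 43 were lower, 5 higher and 3 not called (median -2.65). Of the 51, 4 had no iPS library at 10 or more, *Tbx5* among them, and could hardly be called higher. The limb and lateral mesoderm factor *Prrx1* had values of 37548 and 38281 in MEF and 1274 to 2451 (median 1680) in iPS cells (log2 difference -4.50 ± 0.15 SE, limma Benjamini-Hochberg adjusted p = 3.2e-08). *Snai2*, a repressor of epithelial genes, had values of 3771 and 3724 in MEF and 86.1 to 146 (median 119) in iPS cells (-5.03). *Tbx5*, the forelimb and heart T-box factor, had values of 490 and 491 in MEF and 4.96 to 9.85 (median 6.72) in iPS cells. The hindlimb factor *Pitx1* had a mean of 732 in MEF and 7.30 to 16.9 in iPS cells. Forelimb and hindlimb factors were thus both present in the MEF and close to the detection filter in every iPS library. The exceptions included the endoderm and heart factor *Gata4* (3.10) and the somite factor *Meox1* (2.44).

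Most Hox genes that were called fell. Hox genes record position along the body axis, and of 38 tested 24 were lower, 5 higher and 9 not called (median -2.95). Of the 38, 5 had no iPS library at 10 or more, *Hoxc8* and *Hoxd12* among them. Those 5 could hardly be called higher, so the count is a description. *Hoxc8*, a trunk gene, had values of 1175 and 1257 in MEF and 2.90 to 7.98 (median 4.27) in iPS cells (log2 difference -7.78 ± 0.37 SE, limma Benjamini-Hochberg adjusted p = 2.2e-07). *Hoxd12*, a posterior limb gene, had 384 and 380 in MEF and 0 to 1.05 (median 0) in iPS cells, and *Hoxd11* and *Hoxc10* fell, with differences of -6.84 and -4.71. *Hoxb1* and *Hoxb13* were called higher, but both had values under 10 in both MEF libraries and entered the test through other libraries. *Hoxb1*, a hindbrain and early mesoderm gene, had values of 1.23 and 2.10 in MEF and 59.5 to 2014 (median 317) in iPS cells, and its log2 difference of 6.71 had the large SE of 0.76. Its passage 25 value was above its passage 5 value in each of the 3 lines, at 2014, 453 and 181 against 495, 87.9 and 59.5 (not tested). *Hoxa9* was on the limit, at 1.00, and its call was lost under several alternatives, among them quantile normalization, median centring and leaving out single libraries.

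Signals and receptors that fibroblasts use fell broadly. Of 56 secreted signals, 47 were lower and 3 higher (median -3.07). The Wnt potentiator *Rspo2* had values of 3813 and 3985 in MEF and 4.96 to 15.6 (median 10.2) in iPS cells (log2 difference -8.49 ± 0.37 SE, limma Benjamini-Hochberg adjusted p = 1.3e-07), and the Wnt inhibitor *Dkk2* had 4327 and 4313 in MEF and 5.80 to 25.8 (median 12.4) in iPS cells (-8.32). *Igf1*, *Bmp4* and *Hgf*, growth factors that act on neighbouring cells, fell, with differences of -5.56, -4.47 and -3.89. Midkine (*Mdk*), a heparin-binding factor of embryonic tissue, was higher (749 and 805 in MEF and 5808 to 11575 (median 8749) in iPS cells, 3.46). Of 39 receptors, 22 were lower, 4 higher and 13 not called (median -1.51). *Pdgfrb* and *Tgfbr2*, receptors for platelet-derived growth factor and for Tgf-beta, had differences of -6.02 and -4.31, and *Pdgfra* a smaller one of -2.66. *Kit*, the receptor of stem cell factor, rose from a mean of 5.05 in MEF to between 1294 and 3029, and *Erbb3*, an epithelial receptor, rose by 6.61.

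Netrins and their receptors, the subject of the study, divided by member. Of 16 genes, 6 were higher, 6 lower and 4 not called, and 4 of the 16 had values under 10 in both MEF libraries. The counts were 4 higher and 7 lower with quantile normalization, and 6 higher and 9 lower with housekeeping scaling. The ligand gene *Ntn1* had values of 1056 and 1016 in MEF and 3727 to 6601 (median 5167) in iPS cells (log2 difference 2.31 ± 0.17 SE, limma Benjamini-Hochberg adjusted p = 2.2e-06). All 6 iPS libraries lay above both MEF libraries, and the control line was among them. Of the dependence receptors, which signal cell death when Netrin-1 is absent, *Dcc* rose by 3.21, with line means 2.33 apart on the log2 scale. *Unc5c* had values of 5955 and 5933 in MEF and 50.3 to 108 (median 90.2) in iPS cells (-6.22) and *Unc5b* had 17057 and 16805 in MEF and 1706 to 2748 (median 2362) in iPS cells (-2.91). Both genes had every iPS library below MEF. *Dscaml1*, a relative of the Netrin receptor Dscam, went from a mean of 0.578 to between 67.7 and 161, and the membrane-anchored netrin *Ntng1* fell by 3.14.

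Genes of the organelles that serve secretion and turnover were lower as well. No gene of the 46 lysosomal enzymes and membrane proteins was higher and 37 were lower (median -1.87), with a library share of 1.402 to 1.414% in MEF and 0.457 to 0.541% in iPS cells. The bone-type collagenase cathepsin K (*Ctsk*) had values of 2259 and 2270 in MEF and 14.3 to 31.3 (median 21.8) in iPS cells (log2 difference -6.66 ± 0.21 SE, limma Benjamini-Hochberg adjusted p = 2.6e-08). *Ctss*, a cathepsin of antigen-presenting cells, fell by 6.14, in step with the macrophage markers described further on, and their part in this was not tested. The general membrane protein *Lamp2* had a difference of -2.81. Of 45 secretory pathway and glycosylation genes, 29 were lower, 16 not called and none higher (median -1.10), and with quantile normalization 13 were lower. *Kdelr3* and *Sec24d*, a retrieval receptor and a coat subunit used for large cargo, fell, with differences of -3.83 and -2.72, and the collagen secretion factor *Creb3l1* fell by 4.56, while the translocon channel *Sec61a1* was just past the limit at -1.10.

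The pluripotency network was gained nearly whole. Of 50 core and naive factors, 43 were higher, 6 not called and 1 lower, with a median of 6.39. Since 13 of the 50 had values under 10 in both MEF libraries and could enter the test only by being high elsewhere, the count describes the list and is no support. The list's library share was 0.0819 to 0.0833% in MEF and 0.905 to 1.06% in iPS cells. *Pou5f1* (chromosome 17, 35506018 to 35510772, plus strand) had values of 2538 and 2047 in MEF and 91002 to 110020 (median 99604) in iPS cells (log2 difference 5.45 ± 0.10 SE, limma Benjamini-Hochberg adjusted p = 3.9e-09), a tight range in which the 6 libraries were close to one another. Reads from the retroviral *Pou5f1* and *Myc* could not be separated from endogenous ones. *Nanog* had values of 34.5 and 36.9 in MEF and 2489 to 7441 (median 4450) in iPS cells (6.91), and the naive marker Rex1 (*Zfp42*) had 47.6 and 51.7 in MEF and 2109 to 15153 (median 6206) in iPS cells (6.95). Both were far above MEF in every iPS library, and both differed among the iPS lines. The developmental chromatin gene *Dppa4* and its partner *Dppa2* rose by 9.13 and 9.08, and *Tdgf1*, the Nodal co-receptor, by 8.84. The gene of the list that fell was *Stat3*, the transducer of LIF, with values of 17840 and 17809 in MEF and 4893 to 6118 (median 5212) in iPS cells (log2 difference -1.74 ± 0.09 SE, limma Benjamini-Hochberg adjusted p = 2.7e-07).

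Around that network, the LIF, Nodal and FGF pathway genes were split, with 19 of 41 higher, 13 lower and 9 not called. Their median of 0.38 turned to -0.45 under housekeeping scaling. Of the 41, 5 had values under 10 in both MEF libraries, *Fgf4*, *Nodal* and *Lefty2* among them, and could hardly be called lower. The ligands *Fgf4*, *Nodal* and *Lefty2*, the last an inhibitor of Nodal that its own signal induces, rose by 8.39, 8.19 and 8.76. *Nodal* values were 4.68 and 3.19 in MEF and 1012 to 2063 (median 1513) in iPS cells, with no overlap. On the Bmp arm both the ligand *Bmp4* (4891 and 4776 in MEF and 118 to 418 (median 226) in iPS cells) and the target *Id3* (10188 and 10150 in MEF and 287 to 759 (median 546) in iPS cells) were lower, with differences of -4.47 and -4.29.

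**Figure D2:**
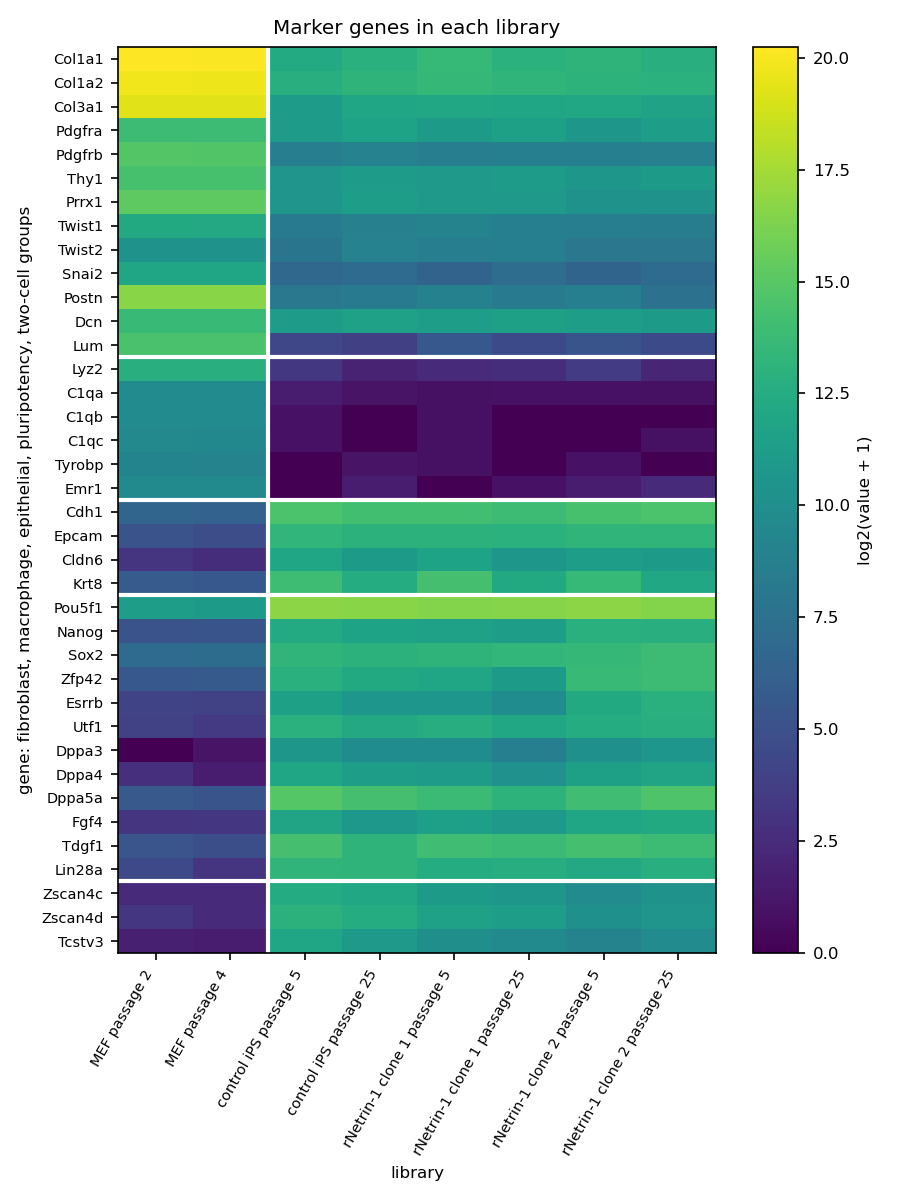
Log2(value + 1) of 38 marker genes (rows) in the 2 MEF and 6 iPS libraries (columns). Fibroblast and macrophage rows are high in both MEF columns and low in the iPS columns, and pluripotency, Zscan4 and epithelial rows show the opposite.

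Germline genes were raised in every iPS line. These genes normally work in germ cells and are held silent elsewhere, largely by promoter methylation. Of 65 listed genes 59 were tested, and 54 were higher, 5 not called and none lower (median 5.49, or 4.86 with the 8 genes at 0 in MEF set to the lower bound of 3 reads a library), although 37 of the 59 had values under 10 in both MEF libraries, so this count is likewise a description. *Stra8*, the meiosis gatekeeper, had values of 3.55 and 3.18 in MEF and 1020 to 5636 (median 1528) in iPS cells (log2 difference 8.77 ± 0.47 SE, limma Benjamini-Hochberg adjusted p = 4.1e-07). *Tex19.1*, which restrains transposons in germ cells and placenta, had 5.91 and 5.29 in MEF and 1498 to 4083 (median 2685) in iPS cells (8.67). *Dazl*, an RNA-binding protein of germ cells, spread wider, with values of 5.76 and 2.16 in MEF and 204 to 2133 (median 759) in iPS cells (7.41), and *Mael* of the piRNA pathway rose by 7.23. All iPS libraries exceeded MEF for these 4 genes. Windows were at hand for 50 of the 59 genes, and 32.0% held the palindromic E-box CACGTG, against 9.55% of all windows. In 2 meiotic chromosome axis genes of the list, chosen because each holds 2 copies of the motif, the E-box is in capitals in the 150 bases before the start, at chr10:88459437-88459586 (plus strand) for *Sycp3* and chr3:95559527-95559676 (plus strand) for *Hormad1*. Their log2 differences were 3.25 and 7.24, and for *Hormad1* MEF was close to 0. The other E-box searched, CACCTG, was likewise in 32.0% of the 50 windows, against 18.9% of all. Nor was CACGTG particular to this list, being in 25.0% of the lysosomal and 22.9% of the Polycomb and Trithorax windows.
Sycp3: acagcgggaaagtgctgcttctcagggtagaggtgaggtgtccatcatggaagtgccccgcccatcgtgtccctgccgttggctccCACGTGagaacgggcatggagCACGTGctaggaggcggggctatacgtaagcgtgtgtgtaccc
Hormad1: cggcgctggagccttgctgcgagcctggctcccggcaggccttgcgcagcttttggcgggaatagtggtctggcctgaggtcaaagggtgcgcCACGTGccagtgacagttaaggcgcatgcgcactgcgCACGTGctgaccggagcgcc

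Genes of the 2-cell embryo stage had the highest median of the 49 lists. In pluripotent cultures the Zscan4 group is known to be on in a small and changing fraction of cells. All 29 tested of 30 listed were higher, with a median of 8.18 (7.71 with the 8 genes at 0 in both MEF libraries set to that bound), and 25 of them had values under 10 in both MEF libraries. The library share of the list was 0.000383 to 0.000492% in MEF and 0.0607 to 0.2998% in iPS cells. *Zscan4c* had values of 4.73 and 4.23 in MEF and 892 to 5472 (median 1921) in iPS cells (log2 difference 8.62 ± 0.21 SE, limma Benjamini-Hochberg adjusted p = 8e-09), *Tmem92* had 0.0903 and 4.17 in MEF and 866 to 3855 (median 1315) in iPS cells (9.38) and *Tcstv1* had 4.59 and 1.10 in MEF and 568 to 3589 (median 923) in iPS cells (8.35). The levels were high in all iPS libraries but uneven among them, and 9 of the 29 genes differed among the lines. *Zscan4e* was listed at 0 in both MEF libraries and at 276 to 1591 in iPS cells. Zscan4 genes lie in a cluster of near-identical copies, and the split of reads between them is uncertain.

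The epithelial program rose as the mesenchymal one fell. Of 52 epithelial junction and polarity genes, 42 were higher, 7 not called and 3 lower (median 5.52), and 13 had values under 10 in both MEF libraries. E-cadherin (*Cdh1*), the adhesion molecule of epithelia, had values of 98.8 and 83.6 in MEF and 14659 to 23290 (median 19466) in iPS cells (log2 difference 7.72 ± 0.13 SE, limma Benjamini-Hochberg adjusted p = 2.2e-09). N-cadherin (*Cdh2*) had 7727 and 7940 in MEF and 804 to 1597 (median 1275) in iPS cells (-2.72) and the mesenchymal cadherin *Cdh11* had 53904 and 55226 in MEF and 649 to 935 (median 801) in iPS cells (-6.13). The MEF and iPS libraries overlapped for none of these 3 cadherins. *Epcam* rose by 8.15, the tight junction claudins *Cldn4* and *Cldn6* by 8.25 and 8.45, and the epithelial regulator *Grhl2* by 8.89, its values being 3.51 and 2.13 in MEF and 1366 to 2555 (median 1739) in iPS cells. *Esrp1*, the splicing factor that sets epithelial isoforms, had 22.5 and 21.1 in MEF and 3831 to 6149 (median 4197) in iPS cells (7.61). The E-box CACCTG, to which Snail and Zeb repressors bind, was in 20 of the 31 windows at hand for this list (the other 21 genes had no window read) and in 18.9% of all windows. The motif, on either strand, is in capitals in the 150 bases before the start of the claudin gene *Cldn6* at chr17:23679215-23679364 (plus strand) and of *Rab25*, an apical recycling GTPase chosen for its pair of copies, at chr3:88548280-88548429 (minus strand).
Cldn6: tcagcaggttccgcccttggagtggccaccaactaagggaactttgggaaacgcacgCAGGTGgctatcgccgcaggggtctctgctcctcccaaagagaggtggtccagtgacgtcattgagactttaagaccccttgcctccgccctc
Rab25: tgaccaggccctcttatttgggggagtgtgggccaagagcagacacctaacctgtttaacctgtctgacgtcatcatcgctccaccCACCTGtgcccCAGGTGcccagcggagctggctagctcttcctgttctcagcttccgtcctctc

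Chromatin regulators changed by member more than by class. Of 21 DNA methylation and hydroxymethylation enzymes, 10 were higher, 1 lower and 10 not called (median 0.87), and with housekeeping scaling 5 were higher and 7 lower (median 0.03). The de novo methyltransferase *Dnmt3b* had values of 200 and 177 in MEF and 7406 to 14993 (median 9432) in iPS cells (log2 difference 5.69 ± 0.14 SE, limma Benjamini-Hochberg adjusted p = 1.1e-08), and its cofactor *Dnmt3l* had 15.2 and 11.7 in MEF and 1662 to 9247 (median 4762) in iPS cells (8.27). *Dnmt3l* was lower at passage 25 than at passage 5 in each of the 3 lines. The hydroxylase *Tet1* rose by 3.89 and the methyl-CpG reader *Mbd2* fell by 1.05. Of 45 Polycomb and Trithorax genes, 15 were higher, 6 lower and 24 not called, a share higher of 33.3% near the background of 26.6%, and their median of 0.29 turned to -0.55 under housekeeping scaling. The chromodomain subunits moved apart, with *Cbx7* higher by 4.35 and *Cbx6* lower. *Phc1* and *Jarid2* rose by 3.33 and 2.72, and the catalytic subunit *Ezh2* by 1.57.

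Genes that silence retroelements rose in 14 of 30 cases and fell in none (median 0.83, or -0.01 under housekeeping scaling). The corepressor *Trim28* had values of 18011 and 17753 in MEF and 34295 to 57801 (median 44220) in iPS cells (1.32), and *Rif1*, which works at telomeres and retroelements, rose by 2.43. The 27 BAF remodelling subunits were balanced, with 4 higher, 4 lower and 19 not called. With housekeeping scaling none was higher and 12 were lower. *Smarcd3* fell by 3.13 and *Smarcc2* fell by 1.74 while *Smarcd1* and *Actl6a* rose by 1.30 and 1.41, and housekeeping scaling ended the calls of the latter pair. Of 31 splicing factors with restricted use, 10 were higher (32.3%) and 6 lower, near the background, with *Mbnl1* and *Celf2*, which favour the isoforms of differentiated cells, lower (differences of -1.66 and -2.22). The BAF and splicing medians, 0.09 and 0.22, both turned negative under housekeeping scaling.

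The genome duplication program was raised moderately and evenly. Of 51 DNA replication genes, 39 were higher, 12 not called and none lower, with a median of 1.46, and their library share was 0.175 to 0.176% in MEF and 0.554 to 0.734% in iPS cells. The helicase subunit *Mcm2* had values of 4205 and 4179 in MEF and 12313 to 16237 (median 14921) in iPS cells (log2 difference 1.78 ± 0.05 SE, limma Benjamini-Hochberg adjusted p = 2.2e-08). The licensing factors *Cdt1* and *Cdc6* and the origin subunit *Orc1*, which load that helicase, rose by 2.62, 1.70 and 2.31, and *Mcm10* by 2.43. With housekeeping scaling 11 of the 51 were higher and none lower. Of the 42 windows at hand, 35.7% held 1 of 3 E2F sites searched (TTTGGCGC, TTTCCCGC or TTTCGCGC, either strand), against 3.24% of all windows. The sites are in capitals in the 150 bases before the start of *Cdc6* at chr11:98908001-98908150 (plus strand) and *Orc1* at chr4:108579304-108579453 (plus strand).
Cdc6: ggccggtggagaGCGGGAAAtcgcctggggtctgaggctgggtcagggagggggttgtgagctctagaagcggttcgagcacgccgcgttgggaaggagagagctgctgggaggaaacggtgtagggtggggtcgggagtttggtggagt
Orc1: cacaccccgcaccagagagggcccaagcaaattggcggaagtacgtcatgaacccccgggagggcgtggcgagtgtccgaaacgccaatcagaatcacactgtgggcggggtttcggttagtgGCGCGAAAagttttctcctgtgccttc

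Mitosis, repair and telomere genes followed the same scale. Of 53 mitosis and cyclin genes, 36 were higher and 1 lower (median 1.29). Cyclin B1 (*Ccnb1*) had values of 2976 and 3001 in MEF and 9652 to 12892 (median 11216) in iPS cells (1.92), and *Mybl2*, which drives late cell cycle genes, had 1098 and 1111 in MEF and 7801 to 15728 (median 10853) in iPS cells (3.33). The lower gene was cyclin D2 (*Ccnd2*), a G1 cyclin, with values of 39188 and 39240 in MEF and 5042 to 12486 (median 6941) in iPS cells (-2.44), while *Ccnd1* had 0.54 and was not called. Of 42 homologous recombination and Fanconi genes, 23 were higher and 1 lower (median 1.36), and the mismatch repair gene *Msh6* rose by 2.60. *Brca1*, a central gene of recombination repair, rose by 2.07. Of 19 telomerase and shelterin genes, 10 were higher and none lower. *Tert*, the catalytic subunit, had 430 and 441 in MEF and 616 to 870 (median 795) in iPS cells and a difference of 0.82 without a call, whereas dyskerin (*Dkc1*) had 1795 and 1878 in MEF and 7273 to 8490 (median 7932) in iPS cells (2.10). With housekeeping scaling the counts fell to 12 higher and 2 lower for the mitosis list, 13 and 2 for the recombination list, and 4 and 1 for the telomere list.

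Cell cycle inhibitors were close to the background here. Of 32 cell cycle inhibitors and p53 targets, 21 were not called, 8 were lower (25%, against 21.6% of all genes) and 3 higher, whereas with housekeeping scaling 20 were lower and 2 higher. *Cdkn1a*, the p53-induced Cdk inhibitor, had values of 28735 and 28780 in MEF and 12412 to 22082 (median 14922) in iPS cells and the senescence gene *Cdkn2a* had 5733 and 5717 in MEF and 2394 to 4376 (median 3064) in iPS cells, both with log2 differences of -0.89. Both genes were lower in each iPS library than in either MEF library without reaching the limit of 1. *Cdkn2b* and *Cdkn2c*, related Cdk4 inhibitors, fell, with differences of -2.79 and -2.12. *Trp73*, the p53 relative, rose from a mean of 1.70 to between 259 and 586, and the p53 target *Perp*, a desmosome protein, rose by 3.29.

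Ribosome production genes rose more often than not. Of 54 ribosome biogenesis and nucleolar genes, 37 were higher, 17 not called and none lower (median 1.18), and their library share was 0.384 to 0.392% in MEF and 1.19 to 1.29% in iPS cells. Nucleolin (*Ncl*), which organizes ribosomal RNA processing, had values of 28254 and 29216 in MEF and 73480 to 83890 (median 83126) in iPS cells (log2 difference 1.49 ± 0.06 SE, limma Benjamini-Hochberg adjusted p = 9.6e-08), and fibrillarin (*Fbl*), the RNA methylase, had 4560 and 4594 in MEF and 11237 to 12905 (median 11954) in iPS cells. The iPS libraries were close to one another and all above MEF. With housekeeping scaling, 2 of the 54 were higher. Of 81 cytosolic ribosomal proteins, 78 were not called and 3 were higher (median 0.47, which is 0.38 above the median of all genes, and -0.37 under housekeeping scaling), while with quantile normalization 32 were higher and 1 lower. *Rpl3* and *Rps6* had differences of 0.72 and 0.64 without a call. The 3 called were *Rpl10l*, *Rpl39l* and *Rpl3l*, relatives of standard subunits that are known from testis or muscle. Both *Rpl10l* and *Rpl3l* had values under 10 in both MEF libraries and could hardly be called lower. *Rpl10l* went from a mean of 0.535 to between 295 and 1925, and *Rpl39l* rose by 2.52. Ribosomal protein genes have many processed copies in the genome, so their reads may be split uncertainly.

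**Figure D3:**
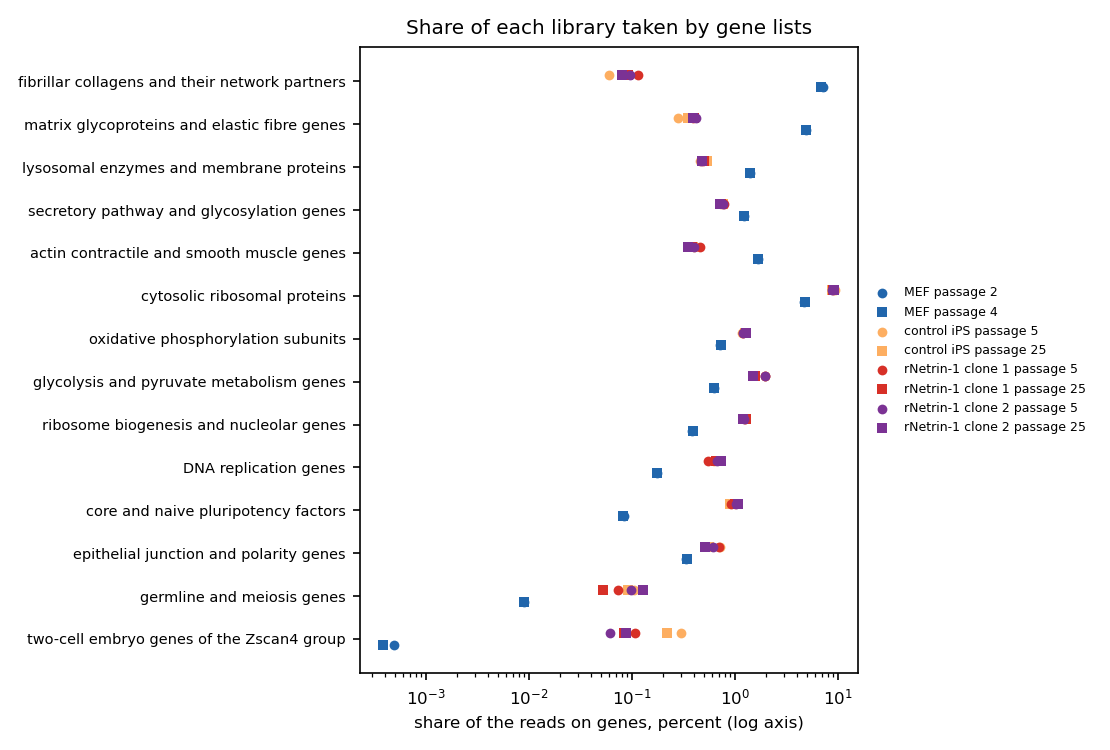
Share of library reads (percent, log axis) taken by 14 gene lists in each of the 2 MEF and 6 iPS libraries, 1 point a library. Collagen, matrix and lysosome lists drop in all 6 iPS libraries, and the Zscan4 group, pluripotency and replication lists lie above MEF in all 6.

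Glycolysis and oxidative phosphorylation genes were called near the background rate or below it. Of 35 glycolysis and pyruvate genes, 10 were higher (28.6%, near the background of 26.6%), 4 lower and 21 not called. The calls were 19 higher and 2 lower with quantile normalization and 3 higher and 9 lower with housekeeping scaling, where the median of 0.75 turned to -0.09. The high-affinity glucose transporter *Slc2a3* had values of 652 and 596 in MEF and 29183 to 50741 (median 37434) in iPS cells (log2 difference 5.95 ± 0.20 SE, limma Benjamini-Hochberg adjusted p = 4.3e-08), and *Slc2a1* had 5771 and 5540 in MEF and 27416 to 112150 (median 62242) in iPS cells (3.41). For *Slc2a1* the passage 5 value was above the passage 25 value in each line. Hexokinase 2 (*Hk2*) and *Pdk1*, which holds pyruvate back from the mitochondria, rose by 1.25 and 1.69, and the pyruvate carrier *Mpc2* fell by 1.14. Of 79 oxidative phosphorylation subunits, 74 were not called (median 0.19, or -0.65 under housekeeping scaling). The 5 that were called included tissue-restricted forms of cytochrome oxidase subunits, of which *Cox7a1* rose by 3.69 and *Cox6a2* fell by 2.29. *Cox6a2* was near the filter, at 16.3 and 10.6 in MEF and 0 to 4.47 in iPS cells, and could hardly be called higher. *Atp5a1* of the ATP synthase had 0.63.

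Amino acid and one-carbon enzymes held the largest single differences among the metabolic lists. Of 37 genes, 16 were higher, 3 lower and 18 not called (median 0.66, or -0.18 under housekeeping scaling). Threonine dehydrogenase (*Tdh*), on which mouse pluripotent cells are known to depend, had values of 10.8 and 13.7 in MEF and 2895 to 6109 (median 4582) in iPS cells (log2 difference 8.37 ± 0.19 SE, limma Benjamini-Hochberg adjusted p = 6.3e-09). *Gldc* and *Amt*, parts of the glycine cleavage system, had values of 61.9 and 43.5 in MEF and 4091 to 8265 (median 5202) in iPS cells (6.72) and 167 and 151 in MEF and 839 to 1988 (median 1479) in iPS cells (3.07). The folate enzymes *Aldh1l2* and *Aldh1l1*, which release one-carbon units as carbon dioxide, fell, with differences of -4.20 and -2.22. Cholesterol synthesis and proteasome genes were near background or below it, with 1 of 26 and 2 of 41 higher and none lower (5 and none, and none and 9, of the 26 with quantile normalization and housekeeping scaling). Their medians of 0.07 and 0.35 turned negative under housekeeping scaling, and the first was already under the median of all genes. *Dhcr7* (1.17) was the cholesterol gene called, and the testis subunit *Psma8* (4.61) and the chaperone *Psmg4* (1.05) were the proteasome genes.

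Inflammatory and antigen presentation genes were mixed. Of 42 cytokines and chemokines tested, 25 were lower, 7 higher and 10 not called (median -1.65). *Il1rn*, the interleukin 1 antagonist, had values of 9029 and 9356 in MEF and 47.5 to 140 (median 92.4) in iPS cells (log2 difference -6.68 ± 0.22 SE, limma Benjamini-Hochberg adjusted p = 3.4e-08), and the chemokines *Cxcl14* and *Cxcl5* fell, with differences of -6.70 and -5.51. *Ccl5* went the other way (24.2 and 10.7 in MEF and 294 to 753 (median 415) in iPS cells, 4.67). *Csf2* was listed at 0 in both MEF libraries and at 30.9 to 45.9 in iPS cells. It was among the 3 of 42 genes with values under 10 in both MEF libraries, which could hardly be called lower. Of 23 class I genes, 6 were lower, 4 higher and 13 not called. The common light chain *B2m* had values of 25881 and 27237 in MEF and 4606 to 6286 (median 5648) in iPS cells (log2 difference -2.27 ± 0.09 SE, limma Benjamini-Hochberg adjusted p = 9.7e-08) and its transactivator *Nlrc5* fell by 1.77, whereas the heavy chain *H2-K1* had 4109 and 3954 in MEF and 6379 to 9353 (median 8891) in iPS cells (1.05, a call lost with housekeeping scaling and with median centring). *B2m* and *H2-K1* thus moved in opposite directions, although class I heavy chain genes are near-identical and share reads uncertainly.

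Interferon response genes showed no shared direction. Of 49 tested, 27 were not called, 14 were higher (28.6%) and 8 lower, close to the background, and the median of 0.12 turned to -0.72 under housekeeping scaling. *Ifit1* had values of 595 and 618 in MEF and 440 to 736 (median 585) in iPS cells (-0.04) and was not called. *Oasl1* had 14.4 and 18.9 in MEF and 712 to 1074 (median 889) in iPS cells (log2 difference 5.64 ± 0.17 SE, limma Benjamini-Hochberg adjusted p = 2.1e-08) and *Oas2* had 59.5 and 65.4 in MEF and 1269 to 3466 (median 2360) in iPS cells (5.18), both members of the oligoadenylate synthetase family. The receptor chains *Ifnar2* and *Ifngr2* fell, with differences of -2.15 and -1.92. Windows were at hand for 42 of the genes, and 57.1% held the core of the interferon response element, GAAANNGAA on either strand, against 7.19% of all.

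AP-1 and immediate early factors also had no common direction here, with 6 of 25 higher, 4 lower and 15 not called. The median of -0.14 turned to 0.07 with quantile normalization, where 3 were higher and 5 lower. With housekeeping scaling 1 was higher and 10 were lower (median -0.98). *Fosl2* had values of 18658 and 18626 in MEF and 1844 to 3190 (median 2252) in iPS cells (log2 difference -3.02 ± 0.20 SE, limma Benjamini-Hochberg adjusted p = 1.5e-06), while its relative *Fosl1* rose by 1.13 and *Jun* had -0.49 without a call. *Klf10* and *Ier2*, rapid responders to growth signals, rose by 1.95 and 1.42. Of 37 Bcl2 family and caspase genes, 25 were not called, 7 were higher and 5 lower, with a median of 0.01, under the median of all genes. With housekeeping scaling 4 were higher and 14 lower. Calls among them fell on both sides of cell death. The survival gene *Bcl2* fell by 1.28 and the death receptor *Fas* and *Casp12* fell, with differences of -2.64 and -3.36, while the BH3-only genes *Bik* and *Hrk* rose by 4.08 and 3.03 from low values. *Bik* and *Hrk* were among the 4 of 37 genes with values under 10 in both MEF libraries, which could hardly be called lower.

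The MEF libraries carried macrophage transcripts. Of 19 macrophage markers tested, 18 were lower in iPS cells and 1 was not called (median -6.002), but 9 of the 19 had no iPS library at 10 or more and could be called only lower, so this count is a description. Their summed value was at most 20268 in MEF, with both libraries close, and 1127 to 2838 in iPS cells. *Lyz2* had values of 6824 and 6951 in MEF and 3.13 to 10.9 (median 4.78) in iPS cells (log2 difference -10.06 ± 0.45 SE, limma Benjamini-Hochberg adjusted p = 1.4e-07), and *Csf1r*, the receptor on which macrophages depend, had 2297 and 2205 in MEF and 31.4 to 168 (median 88.5) in iPS cells (-4.82). The defining markers *C1qb*, *C1qc* and *Tyrobp* had means under 1 in iPS cells. Of the 16 genes with a mean under 1 in iPS cells and at least 100 in both MEF libraries, the 5 with the highest MEF values were *C1qb*, *Lyz1*, *Tnmd*, *C1qc* and *Fcrls*, of which all but the tendon gene *Tnmd* are known from macrophages or other myeloid cells. The fall of cytokine, chemokine and lysosomal genes moved together with these markers, and the part of macrophages in it was not tested.

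Markers of other lineages gave a patchwork. Of 17 cartilage and bone genes, 11 were lower and 3 higher. Of the 17, 2 had no iPS library at 10 or more, *Col10a1* among them, and could hardly be called higher. Another 1 was under 10 in both MEF libraries. Hypertrophic cartilage collagen *Col10a1* had values of 2172 and 2153 in MEF and 0 to 2.97 (median 1.92) in iPS cells (log2 difference -9.81 ± 0.46 SE, limma Benjamini-Hochberg adjusted p = 2e-07), and aggrecan (*Acan*) fell by 3.58, whereas the phosphatase *Alpl*, a stem cell marker as well as a bone one, rose by 4.56. Among the endothelial, neural and muscle markers, 6 of 15, 4 of 18 and 4 of 16 tested genes had values under 10 in both MEF libraries and could hardly be called lower, so these counts too are descriptions. Of 15 endothelial genes, 10 were higher and 2 lower. *Pecam1*, also expressed by pluripotent cells, had 4.68 and 3.19 in MEF and 373 to 2948 (median 1300) in iPS cells (7.92), while the endothelial transcription factor *Erg* had 10.3 to 25.8 in iPS cells against a mean of 934 in MEF (-5.85) and *Kdr* fell by 1.52. Of 18 neural and glial genes, 13 were higher and 2 lower, with *Sox1* at 7.26 and 10.5 in MEF and 544 to 1719 (median 926) in iPS cells and *Nefl* higher by 5.26, and *Tubb3* at 0.89 without a call. Of 16 muscle genes tested, 9 were higher, 3 lower and 4 not called, the higher ones including the fast myosin light chain *Mylpf* (26.8 and 18.1 in MEF and 1220 to 3860 (median 2354) in iPS cells), although the muscle regulator *Myod1* stayed at 0 in MEF and reached at most 6.26 in iPS cells. All 4 fat cell genes that were called, of 5 tested, were lower, with *Pparg* at 541 and 543 in MEF and 9.24 to 25.1 (median 16.4) in iPS cells.

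Early lineage markers were more often higher than lower, 15 against 4 of 25, and 11 of the 25 had values under 10 in both MEF libraries. *Otx2* and *Pou3f1*, factors of the formative epiblast, had values of 1.23 and 2.10 in MEF and 551 to 1748 (median 1200) in iPS cells and of 14.1 and 10.6 in MEF and 791 to 3032 (median 1655) in iPS cells. The trophoblast factor *Elf5* had 1.19 and 1.06 in MEF and 134 to 434 (median 228) in iPS cells. The primitive streak gene *T* reached 15.9 to 29.8 and *Gsc*, of the organizer, fell by 1.53. Of the 39 genes with a mean under 1 in MEF and at least 100 in every iPS library, the 5 with the highest iPS values were *Dppa3*, *Rpl10l*, *Gm13119*, *Zscan4e* and *Gm4971*. *Dppa3*, a maternal factor that shields methylation marks, had 0.0226 and 1.05 in MEF and 436 to 1646 (median 1026) in iPS cells.

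The 3 iPS lines were not alike for all of these genes. An F test among the lines called 526 genes (3.08%), of which 297 were among the 4547 genes higher in iPS cells (6.53%), 115 among the 3690 lower (3.12%) and 114 among the 8838 not called (1.29%). With passage as a replicate block, the F test called 1195 genes, and without 1 library it called between 179 and 449, the lowest count being without the control line at passage 25 and the highest without clone 2 at passage 5. No fibrillar collagen, replication or ribosome biogenesis gene differed among the lines by this test, against 9 of 29 in the Zscan4 group and 9 of 50 pluripotency factors. *Zfp42* had its lowest and highest line means 2.27 apart on the log2 scale, and *Nanog* 1.37. *Zfp42* values were 7387 and 5025 in the control line at passages 5 and 25, 3915 and 2109 in clone 1, and 12601 and 15153 in clone 2. *Lox* had line means 3.57 apart, with values of 936 and 637 in the control line at passages 5 and 25, 10189 and 8228 in clone 1, and 1347 and 877 in clone 2. For *Lox* clone 1 was the high line at both passages, yet both of its values stayed below MEF. Each line is 1 clone, so these differences cannot be assigned to rNetrin-1.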

How the data were processed

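Polyadenylated RNA was sequenced as single 50-nucleotide reads with a kit that does not keep strand. Per the labels, the reads were processed with CASAVA 1.8.2, FastQC, TopHat2 2.0.8b (mm10), HTSeq 0.5.3p9 and edgeR. The authors deposited a table of edgeR pseudo-counts, a library-size-adjusted signal per gene, with no unmapped columns (0). Whole reads were recovered from it (tolerance 0.1 reads, 100% of values whole), which gave the depths. Groups came from the labels.

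Log2(value + 1) of 17075 genes was fitted with limma 3.58.1 in R 4.3.3 (trend, 1 mean for each of 5 lines, all 10 libraries), and the mean of the 3 iPS lines was set against MEF. In simulated libraries of 16779 genes, the fit recovered 96% of 4-fold and 40% of 2-fold changes, with 2 false calls. A 2-fold change lies on the log2 limit of 1, so its recovery was bounded by the rule. The simulation changed far fewer genes than were called here, evenly up and down, and held no shift in scaling between cell types. Its false calls therefore do not measure the error of the real calls. Alternatives were other pseudocounts, filters, scalings, groupings, a replicate block, single libraries left out, and edgeR 4.0.16 or DESeq2 1.42.0 on the recovered reads. The passage number was used as the block because the changes from passage 5 to 25 correlated between lines (0.24 to 0.50).

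The comparison, the gene lists and the motifs were chosen with earlier results of these data known. Genes were named by rule: lead genes of each list, the called members with the largest differences (3 in the main direction, 2 in the other), the 10 largest rises and falls of the mean value, and the 5 highest genes present in a single cell type. The housekeeping genes, *Lum*, *Twist2*, *Tyrobp*, *Sycp3*, *Hormad1*, *Rab25* and the remarks on passage were added after their values were seen. A few genes that the rule names are not reported here. Gene positions are from GENCODE M21. Promoter windows (RefSeq, GRCm38.p6) matched 13305 of 17075 tested genes (77.9%), so promoter properties were not compared between classes of all genes.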

Additional observations from a re-analysis of the deposited data

Results flagged for a closer look

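Differences among the 3 iPS lines passed the F test (limma, Benjamini-Hochberg adjusted p under 0.05, line means at least 1 apart on the log2 scale) for 9 genes named here. The log2 distance between the highest and lowest line mean was 3.57 for *Lox*, 2.33 for *Dcc*, 2.29 for *Rpl10l*, 2.27 for *Zfp42*, 2.19 for *Zscan4c*, 1.65 for *Alpl*, 1.5 for *Rpl39l*, 1.44 for *Aldh1l1* and 1.37 for *Nanog*. Clone 1 had the lowest line mean for *Rpl10l*, *Alpl*, *Rpl39l* and *Nanog* and the highest for *Lox*. *Nanog* was at 7441 (passage 5) and 6852 (passage 25) for clone 2, 5402 and 3499 for the control and 3063 and 2489 for clone 1. *Alpl* was at 4439 (passage 5) and 7378 (passage 25) for clone 2, 4166 and 3646 for the control and 1990 and 1676 for clone 1. The control line had the highest line mean for *Dcc* and *Zscan4c* and clone 2 the lowest, the *Dcc* values being 152 (passage 5) and 184 (passage 25) for clone 2, 924 and 773 for the control and 306 and 312 for clone 1. In all these genes the MEF libraries still lay outside the iPS range. Each line is 1 clone, and what sets the lines apart was not tested.

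A single iPS library lay apart from the other 5 for 6 of the 227 named genes. Its gap took up more of the range of the 6 values (log2 scale) than Dixon's limit. Chance flags about 1 in 20 groups, so 6 of 227 is no more than chance alone would give. Clone 2 at passage 25 was the lowest for *Cbx6* (gap of 0.67 of the range) and the highest for *Trp73* (0.66). Clone 2 at passage 5 was the lowest for *Hgf* (0.72). Clone 1 at passage 5 was the lowest for *Ezh2* (0.64) and for *Cox6a2* (0.63), which was listed at 0 there. The control line at passage 25 was the lowest for *Hprt* (0.74). None of these libraries reached the MEF values of the gene.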

How the results depend on the processing

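The counts of 4547 higher and 3690 lower genes became 2946 and 7206 with housekeeping scaling and 7161 and 6385 with the adjusted p alone. Other settings kept both within 1.5 times, with 4354 to 4578 higher and 3549 to 3717 lower when 1 library was left out and 4574 and 3715 with the replicate block. The 526 genes called among iPS lines became 1195 with the replicate block, which was added after the data were seen, and 179 to 449 without 1 library (253 without the control line's passage 5, 179 without its passage 25, 306 and 253 without those of clone 1, 346 without passage 25 of clone 2). The block changed the side of the threshold for no other result.

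With housekeeping scaling, medians turned to -0.717 for interferon, -0.622 for splicing, -0.547 for Polycomb, -0.011 for retroelement silencing, -0.742 for BAF, -0.369 for ribosomal protein, -0.088 for glycolysis, -0.651 for oxidative phosphorylation, -0.181 for one-carbon, -0.767 for cholesterol, -0.486 for proteasome, -0.453 for LIF, Nodal and FGF and -0.830 for Bcl2 family genes. The AP-1 median turned to 0.0695 with quantile normalization and ran from -0.292 to 0.0367 without 1 library (above 0 without passage 25 of clone 1 or, at 0.0230, of clone 2). The cholesterol median turned to -0.0087 with median centring. The Bcl2 family median turned to -0.0749 with a mean of at least 50, -0.0720 with median centring, -0.0016 with DESeq2, and ran from -0.0316 to 0.0557 without 1 library (below 0 at -0.0072 without passage 5 of the control line, -0.0221 and -0.0316 without those of clones 1 and 2, and -0.0026 without MEF at passage 2). In another setting the 100 most abundant genes of each library were left out, a set chosen separately for each. A list could thus lose different members in MEF and in iPS libraries. There the log2 ratio of library shares, iPS to MEF, turned to 0.985 for class I, -1.16 for ribosomal protein, -0.103 for glycolysis and 1.06 for cartilage and bone genes. Of 49 such ratios, 29 others moved by more than the spread between iPS libraries without turning, and 16 did not. The cause of the turns was not tested.

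No named gene changed direction where it was called in the main fit or in the alternative. Changes of sign in genes not called were not counted. Housekeeping scaling moved every difference, like the median of all genes, by -0.837. Smaller positive differences, such as those of *Rpl3* and *Rps6*, thus turned negative. Of 227 named genes, 20 lost their call with housekeeping scaling, among them *Mcm2*, *Cdc6*, *Ncl*, *Fbl*, *Npm1*, *Ezh2*, *Trim28*, *Hk2* and *Hsp90ab1*, and 4 gained one, among them *Cdkn1a* and *Cdkn2a*. Calls were lost in 16 and gained in 7 of 4758 other repeats. Depth was similar across libraries, and the values near 0 in MEF limit the size of the largest gains.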
